A study of Mus musculus with 9 samples.

Results

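Dendritic cell markers were followed in mature megakaryocytes (mMKs) from mouse bone marrow, in control mice and post ionizing radiation (IR). The 10 markers were taken by name and found by matching their symbols to the gene names of the array probes. Siglech, Tcf4 and Ccr9 mark plasmacytoid dendritic cells, Zbtb46, Itgax, Xcr1, Clec9a, Batf3 and Cd209a mark conventional dendritic cells, and Flt3 marks both kinds. All 10 were on the array, through 25 probes, among 37316 named genes. Of these, 9 markers passed the filter on dim probes, among 29410 genes tested, and Xcr1 did not.

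RNA from sorted mMKs was labelled with Cy3 and hybridized to 9 Agilent 1-colour arrays, 3 for each of 3 groups. The groups were Ctrl mice, which the study's methods describe as sham-irradiated, mice at 1 day post IR (1 dpi) and mice at 3 days post IR (3 dpi), the irradiated mice after 5 Gy of γ-rays. The labels give male mice, different donors for each experiment, and neither genotype, strain nor age, nor how many animals gave the RNA of 1 array. The study's methods list wild-type C57BL/6 mice among the irradiated animals without tying them to these arrays. The mMKs were enriched from marrow cells by magnetic selection for CD41 and then CD42d, after red blood cells had been lysed.

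Plasmacytoid dendritic cells are the marrow-derived cells known for making type I interferon, and the E protein encoded by Tcf4 directs their development. Conventional dendritic cells take up and present antigen; one branch, cDC1, depends on Batf3 and carries Xcr1 and Clec9a, and the other is called cDC2. Both kinds arise in the marrow from progenitors that carry the receptor Flt3, which early B-cell and multipotent progenitors carry too.

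Signal was well above background, by the array software's own flag, on 69.07%, 79.45% and 80.79% of spots in Ctrl, on 72.31%, 74.81% and 75.59% at 1 dpi, and on 81.76%, 81.63% and 81.84% at 3 dpi. Before scaling, the 75th percentile of log2 intensity was 9.52, 10.12 and 10.15 in Ctrl and 9.85, 10.04 and 10.02 at 3 dpi. It was lower at 1 dpi, at 8.85, 8.96 and 8.94. Ctrl replicate 1 was the only array on a second slide with its own scan, and the other 8 arrays shared 1 slide and 1 scan. This array stood apart: the log2 values of all genes differed from those of Ctrl replicates 2 and 3 with an SD of 0.679 and 0.681, against 0.242 between Ctrl replicates 2 and 3. Values within the shared slide, which leave Ctrl replicate 1 out, are therefore given beside the results. A list of 14 megakaryocyte markers, all tested and led by Pf4, the gene of platelet factor 4, is given beside the label of the cells. Their summed intensity averaged 215, 203 and 223 in Ctrl, at 1 dpi and at 3 dpi, in units of each array's 75th percentile. A list of 10 neutrophil markers, led by Mpo, summed to 1600, 2610 and 1640 in the same groups, and the cells this RNA came from were not tested.

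Levels below are log2 intensities minus the array's 75th percentile, so a level of 0 is as bright as that percentile. Each gene is represented by its brightest probe, and levels of different probes are not compared. A gene is called higher or lower where limma's moderated test gave an adjusted p under 0.05 and the change was at least 2-fold. Over all genes tested, the log2 fold change had a median of 0.227 at 1 dpi and 0.118 at 3 dpi, and changes relative to that median are given where they matter. Because 3 arrays stood against 3, an exact two-sided permutation test of a single marker could not give a p below 0.1, so the tests rest on the model across all genes.

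At 1 dpi, Flt3 and Cd209a fell and Siglech rose. In bulk RNA such as this, fewer cells of a type and less RNA per cell cannot be told apart for these or the other markers. The calls were 2 of 9 tested markers lower, where 3.08% of all genes were lower, and 1 of 9 higher, where 11.7% of all genes were higher. With no minimum fold, 5 of 9 were lower (Tcf4, Ccr9, Flt3, Clec9a and Cd209a), against 21.9% of all genes, and 3 of 9 were higher (Siglech, Itgax and Batf3), against 33.4%, so the counts of higher markers were near the background. The 3 higher ones did not all pass under other scalings, as given with each. The markers were chosen with earlier results of these data known, so these shares can test no excess in either direction. The rise of Siglech came from a probe whose sequence is shared with other genes, and another Siglech probe fell.

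At 3 dpi, Flt3 alone among the 9 tested markers was called, lower, where 1.79% of all genes were lower and 7.04% were higher. With no minimum fold, 5 of 9 were lower than in Ctrl, the background being 14.8%, and they were Tcf4, Ccr9, Flt3, Clec9a and Cd209a. Batf3 was the 1 of 9 that was higher, the background being 17.1%. From 1 dpi to 3 dpi, Cd209a was the 1 marker called higher, where 4.16% of all genes were higher and 4.48% lower. With no minimum fold, 5 of 9 were higher at 3 dpi than at 1 dpi (Tcf4, Ccr9, Clec9a, Batf3 and Cd209a), against 21.0% of all genes, and 3 of 9 were lower (Siglech, Flt3 and Itgax), against 23.3%. The comparisons of 1 dpi and of 3 dpi with Ctrl share the same 3 Ctrl arrays.

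**Figure D1:**
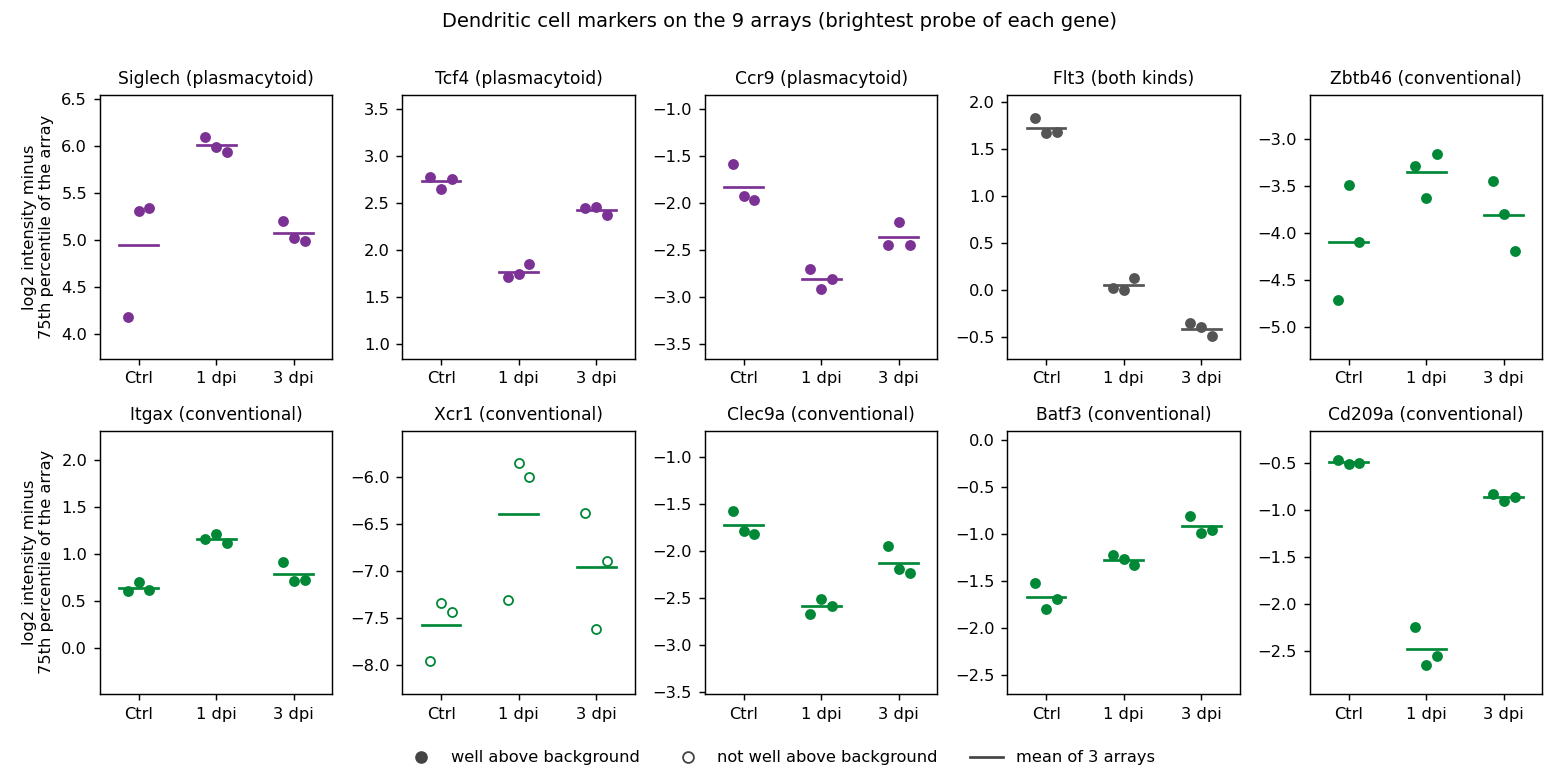
Level of the 10 dendritic cell markers on each array (y axis, log2 intensity minus the array's 75th percentile; points are arrays, bars the means of 3 arrays, open points not well above background), with an own y range for each gene. Flt3 fell from 1.67 to 1.83 in Ctrl to between -0.35 and -0.49 at 3 dpi, Cd209a was lowest at 1 dpi, and Xcr1 was not well above background on any array.

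Siglech encodes a surface receptor of plasmacytoid dendritic cells that signals through the adaptor encoded by Tyrobp. Its 3 probes are printed because they gave different answers. Capitals mark bases that lie in a run of 16 bases found in a probe of another gene, on either strand.
Siglech probe 1: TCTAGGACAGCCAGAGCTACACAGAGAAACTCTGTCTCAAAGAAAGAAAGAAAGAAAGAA
Siglech probe 2: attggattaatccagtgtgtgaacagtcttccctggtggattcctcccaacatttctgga
Siglech probe 3: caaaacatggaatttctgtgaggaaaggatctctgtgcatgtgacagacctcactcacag
On mm9 the 3 probes lie at chr7:63034088-63034147, chr7:63028608-63028667 and chr7:63024045-63024269, all on the plus strand, and the 60 bases of Siglech probe 3 are spread over 225 bases of the genome, so it spans at least 1 gap. All 60 bases of Siglech probe 1 were shared, with probes of 16 other genes, whereas probes 2 and 3 shared no run with any other gene.

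Siglech probe 1, the brightest, gave levels of 4.18, 5.30 and 5.34 in Ctrl, 6.09, 5.99 and 5.93 at 1 dpi, and 5.20, 5.02 and 4.99 at 3 dpi. The 3 arrays at 1 dpi were above every other array, the low array was Ctrl replicate 1, and 3 dpi overlapped Ctrl. The log2 fold change of Siglech at 1 dpi was 1.06 (SE 0.285, adjusted p = 0.015), or 0.84 relative to the median of all genes. Within the shared slide it was 0.68 (adjusted p = 0.00062), which is under 2-fold, so the call at 1 dpi depended on Ctrl replicate 1. It was also lost with arrays scaled to their medians (0.74, adjusted p = 0.014) and with quantile normalization (0.77, adjusted p = 0.072). At 3 dpi Siglech stood at 0.13 against Ctrl (adjusted p = 0.75) and at -0.25 within the shared slide (adjusted p = 0.055). From 1 dpi to 3 dpi the value was -0.94 (adjusted p = 0.031), and with Ctrl replicate 1 left out of the model the same -0.94 had an adjusted p of 0.00012. It did not pass without any 1 of the 6 arrays compared (-1.0 to -0.89, adjusted p from 0.058 to 0.088).

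Probes of other genes that share this sequence are given for comparison. Of the 11 probes of other genes that hold a run of Siglech probe 1 on the same strand, 9 lay above 0 at 1 dpi in log2 fold change, with a median of 0.70. The 5 that hold it on the opposite strand had a median of 0.81, with 4 above 0. Among all 44300 probes past the filter the median was 0.20 and 61.6% lay above 0, and among the 507 that share a run with at least 10 other genes, 1.14% of all, these were 0.60 and 76.7%. What part of the signal of Siglech probe 1 came from Siglech RNA was not tested.

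Siglech probe 3 gave levels of -3.92, -4.07 and -4.07 in Ctrl, -5.82, -5.70 and -5.44 at 1 dpi, and -4.52, -4.41 and -4.39 at 3 dpi. Its 3 arrays at 1 dpi were the lowest and were not well above background, and the 3 groups did not overlap. The lowest level flagged as well above background was higher on the dimmer arrays at 1 dpi, at -5.047, -5.379 and -5.415. It was -5.71, -6.195 and -6.356 in Ctrl and -6.237, -6.396 and -6.333 at 3 dpi. A level can thus miss the flag at 1 dpi and carry it in another group. Where a group is not above background on any array, a fold is given as a bound, against the higher, on each array, of the signal itself and the lowest signal that counted as well above background. On that footing Siglech probe 3 was at least 2.39-fold lower at 1 dpi than in Ctrl and at least 1.79-fold higher at 3 dpi than at 1 dpi. The limma test of these comparisons used the signals as read, not the bounds (adjusted p = 1.9e-05 and 0.00013). At 3 dpi Siglech probe 3 was lower than in Ctrl by a log2 fold change of -0.42 (adjusted p = 0.019). Siglech probe 2 stayed between -4.43 and -3.52 on the 9 arrays, with log2 fold changes of 0.068 and -0.083 at 1 and 3 dpi (adjusted p = 0.85 for both). The 3 probes of Siglech therefore did not give 1 direction at 1 dpi.

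**Figure D2:**
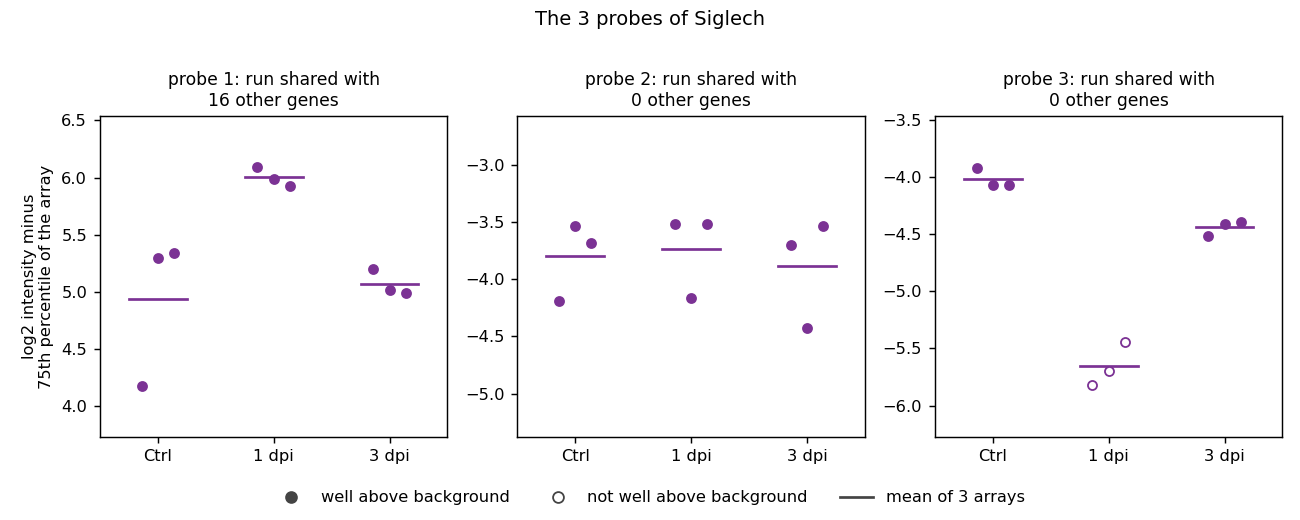
The 3 probes of Siglech on each array (y axis, log2 intensity minus the array's 75th percentile, with an own range for each probe; bars are means of 3 arrays, open points not well above background). At 1 dpi probe 1 was higher than in Ctrl and probe 3 lower, and probe 2 had a log2 fold change of 0.068.

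Tcf4 encodes the E protein that sets the plasmacytoid programme and is also expressed outside dendritic cells. Its brightest probe gave levels of 2.78, 2.65 and 2.76 in Ctrl, 1.71, 1.74 and 1.85 at 1 dpi, and 2.45, 2.46 and 2.37 at 3 dpi. Every array at 1 dpi was below every other array, 3 dpi lay between, and the 3 groups did not overlap. The log2 fold change of Tcf4 was -0.96 at 1 dpi (SE 0.0678, adjusted p = 2.9e-05), just under 2-fold, and -1.18 relative to the median of all genes. It was -0.30 at 3 dpi (adjusted p = 0.012), and 3 dpi was above 1 dpi by 0.66 (adjusted p = 0.00026). Within the shared slide the change of Tcf4 at 1 dpi was -0.93 (adjusted p = 8.1e-05). Of the other 4 Tcf4 probes, 1 fell at 1 dpi by 1.01 on the log2 scale (adjusted p = 0.0018), and another stood at -0.22 (adjusted p = 0.18) and one more at 0.12 (adjusted p = 0.26). The remaining one did not pass the filter. At 3 dpi none of the 3 other tested probes passed against Ctrl (-0.26, -0.14 and -0.16, adjusted p = 0.16, 0.55 and 0.2). The probe that fell at 1 dpi was higher from 1 dpi to 3 dpi by 0.86 (adjusted p = 0.0047), while another was lower by -0.28 (adjusted p = 0.031). The difference of Tcf4 at 3 dpi stood at the threshold without 3 dpi replicate 3 (-0.27) and with the mean of its probes (-0.22), with an adjusted p of 0.05 in both. It passed in 24 of the 27 alternatives run, with values from -0.449 to -0.208 and a highest adjusted p of 0.31.

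Ccr9, the receptor of the chemokine Ccl25 and a marker of mature plasmacytoid dendritic cells, was also lowest at 1 dpi. Its levels were -1.59, -1.93 and -1.97 in Ctrl, -2.70, -2.92 and -2.81 at 1 dpi, and -2.45, -2.20 and -2.45 at 3 dpi. All irradiated arrays were below all Ctrl arrays, 1 dpi was lowest, and no groups overlapped. The log2 fold change of Ccr9 was -0.98 at 1 dpi (SE 0.125, adjusted p = 0.00047), -0.54 at 3 dpi (adjusted p = 0.013), and 0.45 from 1 dpi to 3 dpi (adjusted p = 0.023). It stood at the edge of the 2-fold threshold, and was called lower at 1 dpi without Ctrl replicate 2 (-1.03), without Ctrl replicate 3 (-1.05) and without 1 dpi replicate 1 (-1.04). Within the shared slide it was -0.86. Its small differences did not all pass without single arrays: at 3 dpi without 3 dpi replicate 3 it was -0.50 (adjusted p = 0.052), and from 1 dpi to 3 dpi it was 0.39 without 1 dpi replicate 2 (adjusted p = 0.076), 0.45 without 1 dpi replicate 3 (adjusted p = 0.059) and 0.36 without 3 dpi replicate 2 (adjusted p = 0.081). With normexp background correction the change of Ccr9 from 1 dpi to 3 dpi was 0.019 (adjusted p = 0.88). The other Ccr9 probe was not above background on any array at 1 dpi and was at least 1.47-fold lower there than in Ctrl. The limma test of that comparison used the signals as read, not the bound (adjusted p = 0.0014). At 3 dpi this probe stood at -0.90 (adjusted p = 0.065).

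Flt3, the receptor tyrosine kinase of dendritic, lymphoid and multipotent progenitors, was the 1 marker called lower at both times. Its 2 probes are printed because only the first one fell, capitals again marking a run shared with another gene's probe.
Flt3 probe 1: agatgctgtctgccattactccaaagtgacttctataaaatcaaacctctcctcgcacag
Flt3 probe 2: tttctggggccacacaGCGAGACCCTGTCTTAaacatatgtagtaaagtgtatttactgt
They lie on the minus strand at chr5:148142576-148142635 and chr5:148174133-148174192 on mm9, the second one designed to a cDNA record and not to the RefSeq transcript. Flt3 probe 1 gave levels of 1.83, 1.67 and 1.68 in Ctrl, 0.026, 0.0030 and 0.13 at 1 dpi, and -0.35, -0.39 and -0.49 at 3 dpi. Every Ctrl array was above every array at 1 dpi, and each of those was above every array at 3 dpi. Flt3 fell by 1.67 on the log2 scale at 1 dpi (SE 0.073, 3.19-fold, adjusted p = 2.8e-06) and by 2.14 at 3 dpi (4.40-fold, adjusted p = 7.2e-07). The further fall from 1 dpi to 3 dpi was -0.46 (adjusted p = 0.0018), and with arrays scaled to their medians it was -0.29 and did not pass (adjusted p = 0.17). Relative to the median of all genes the changes at 1 and 3 dpi were -1.90 and -2.26, and within the shared slide -1.62 and -2.09. Flt3 probe 2 lay between -4.66 and -3.21 and had log2 fold changes of 0.54 at 1 dpi (adjusted p = 0.15) and -0.077 at 3 dpi (adjusted p = 0.86). With the mean of both probes in place of the brightest, Flt3 stood at -0.57 at 1 dpi and was not called.

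Among the conventional markers, Cd209a, a C-type lectin of the DC-SIGN family found on cDC2 and on dendritic cells derived from monocytes, had the largest change at 1 dpi. Its 2 probes are printed because both fell at 1 dpi, capitals marking a run shared with another gene's probe.
Cd209a probe 1: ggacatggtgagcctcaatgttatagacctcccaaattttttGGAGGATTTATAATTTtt
Cd209a probe 2: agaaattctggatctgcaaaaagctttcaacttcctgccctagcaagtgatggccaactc
Both lie on the minus strand, at chr8:3743481-3743540 and chr8:3744074-3744133 on mm9, and probe 1 shares 1 run with a probe of 1 other gene, Platr27. Cd209a probe 1 gave levels of -0.47, -0.51 and -0.51 in Ctrl, -2.25, -2.65 and -2.56 at 1 dpi, and -0.83, -0.91 and -0.86 at 3 dpi. The 3 arrays at 1 dpi were far below all others, and 3 dpi lay close under Ctrl without overlap. Cd209a fell by 1.99 on the log2 scale at 1 dpi (SE 0.102, 3.98-fold, adjusted p = 5.8e-06) and stood at -0.37 at 3 dpi (adjusted p = 0.026). From 1 dpi to 3 dpi it rose by 1.62 (3.07-fold, adjusted p = 3.4e-05). Within the shared slide the changes against Ctrl were -1.98 (adjusted p = 3e-05) and -0.36 (adjusted p = 0.051), so the small difference at 3 dpi did not pass without Ctrl replicate 1. Nor did it pass without Ctrl replicate 2 (-0.38, adjusted p = 0.062), Ctrl replicate 3 (-0.38, adjusted p = 0.063) or any 1 of the 3 dpi arrays (-0.39 to -0.35, adjusted p from 0.054 to 0.088).

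Cd209a probe 2 gave levels of -1.99, -2.16 and -1.61 in Ctrl, -2.84, -3.09 and -3.10 at 1 dpi, and -2.43, -2.50 and -2.53 at 3 dpi. It showed the same order of groups, with no overlap. Its log2 fold changes were -1.09 at 1 dpi (adjusted p = 0.00052), -0.57 at 3 dpi (adjusted p = 0.018) and 0.52 from 1 dpi to 3 dpi (adjusted p = 0.019), so the later rise of this probe was under 2-fold.

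Clec9a, the cDC1 receptor for actin exposed by dead cells, followed the same order at lower amplitude. Its levels were -1.58, -1.79 and -1.82 in Ctrl, -2.67, -2.51 and -2.59 at 1 dpi, and -1.95, -2.20 and -2.24 at 3 dpi. Arrays at 1 dpi were lowest, arrays at 3 dpi lay between, and the groups did not overlap. The log2 fold change of Clec9a was -0.86 at 1 dpi (SE 0.104, adjusted p = 0.00037), -0.40 at 3 dpi (adjusted p = 0.022) and 0.46 from 1 dpi to 3 dpi (adjusted p = 0.0089). With normexp background correction the last of these was 0.066 and did not pass (adjusted p = 0.55). Within the shared slide it was -0.79 at 1 dpi, and its second probe had -0.57 at 1 dpi (adjusted p = 0.0067) and -0.41 at 3 dpi (adjusted p = 0.043). That probe stood at 0.16 from 1 dpi to 3 dpi (adjusted p = 0.33), with groups that overlapped. Without 3 dpi replicate 2 or 3 the difference of Clec9a at 3 dpi no longer passed, at -0.37 and -0.34 (adjusted p = 0.08 for both). Over the 27 alternatives run this difference passed in 23, with a highest adjusted p of 0.091.

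Batf3, the AP-1 family factor that pairs with Jun proteins and is needed for cDC1, went the other way. Its single probe gave levels of -1.52, -1.79 and -1.69 in Ctrl, -1.22, -1.26 and -1.33 at 1 dpi, and -0.80, -0.98 and -0.96 at 3 dpi. All arrays at 3 dpi were highest, all Ctrl arrays lowest, and the groups did not overlap. Batf3 was higher by a log2 fold change of 0.40 at 1 dpi (SE 0.0876, adjusted p = 0.0066), and by 0.75 at 3 dpi (1.68-fold, adjusted p = 0.00045). Relative to the median of all genes these were 0.17 and 0.63, and within the shared slide 0.47 and 0.82. Batf3 thus did not reach 2-fold at either time. Its rise at 1 dpi did not pass with arrays scaled to their medians (0.071, adjusted p = 0.73) or with quantile normalization (0.27, adjusted p = 0.06), whereas that at 3 dpi passed with both (0.60 and 0.71, adjusted p = 0.024 and 0.0014).

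Itgax, which encodes CD11c, an integrin chain of conventional dendritic cells that macrophages and monocytes can carry too, was highest at 1 dpi. Its levels were 0.61, 0.71 and 0.62 in Ctrl, 1.16, 1.22 and 1.12 at 1 dpi, and 0.92, 0.72 and 0.73 at 3 dpi. Arrays at 1 dpi stood above all others, and arrays at 3 dpi lay just above Ctrl. The log2 fold change of Itgax was 0.52 at 1 dpi (SE 0.0745, adjusted p = 0.00081), 0.30 relative to the median of all genes and 0.51 within the shared slide. At 3 dpi it stood at 0.14 (adjusted p = 0.19), a value that turned to -0.0067 when arrays were scaled to their medians. From 1 dpi to 3 dpi Itgax was lower by -0.38 (adjusted p = 0.0048). With that scaling to medians neither the rise at 1 dpi (0.20, adjusted p = 0.21) nor the later fall (-0.21, adjusted p = 0.23) passed. Itgax probe 3 rose at 1 dpi by 1.24 (adjusted p = 1e-04) and fell from 1 dpi to 3 dpi by 1.30 (adjusted p = 0.00014). It was well above background on only 2 of 3 Ctrl arrays, so the size of its rise at 1 dpi is not exact. Itgax probe 2 stood at 0.27 and 0.50 at 1 and 3 dpi, and neither value passed.

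Zbtb46, a zinc finger factor that sets conventional dendritic cells apart from other myeloid cells, was dim and its probes disagreed. The brightest gave levels of -4.72, -3.49 and -4.10 in Ctrl, -3.29, -3.63 and -3.16 at 1 dpi, and -3.45, -3.80 and -4.20 at 3 dpi. The low array was Ctrl replicate 1, and all 3 groups overlapped. Its log2 fold change was 0.74 at 1 dpi (SE 0.323, adjusted p = 0.085); for 3 dpi it was 0.29 (adjusted p = 0.53), with 0.43 and -0.023 within the shared slide. Without Ctrl replicate 2 the value at 1 dpi was 1.05 (adjusted p = 0.019) and Zbtb46 was called higher.

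Zbtb46 probe 2 gave levels of -5.50, -5.15 and -5.12 in Ctrl, -5.15, -5.35 and -5.58 at 1 dpi, and -3.62, -3.76 and -4.19 at 3 dpi. Its 3 arrays at 3 dpi were above all 6 others, and Ctrl and 1 dpi overlapped. It was higher at 3 dpi than in Ctrl by a log2 fold change of 1.40 (adjusted p = 8e-04). At 1 dpi it was well above background on 1 of 3 arrays, so its difference from 3 dpi is not given as a fold. Zbtb46 probe 3 was not above background on any array in Ctrl or at 1 dpi, and was at least 1.52-fold higher at 3 dpi than in Ctrl. It passed the filter only through the 3 dpi arrays, where it was high, so a test of its rise decides nothing. The fourth probe did not pass the filter. The rise at 3 dpi was thus seen with Zbtb46 probe 2 and not with the brightest one, and probe 3 is not counted for it.

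Xcr1, the cDC1 receptor of the chemokine Xcl1, had 1 probe. Its levels ran from -7.96 to -7.34 in Ctrl, from -7.31 to -5.85 at 1 dpi and from -7.61 to -6.38 at 3 dpi. None of the 9 arrays was well above background, so no fold change is given.

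**Figure D3:**
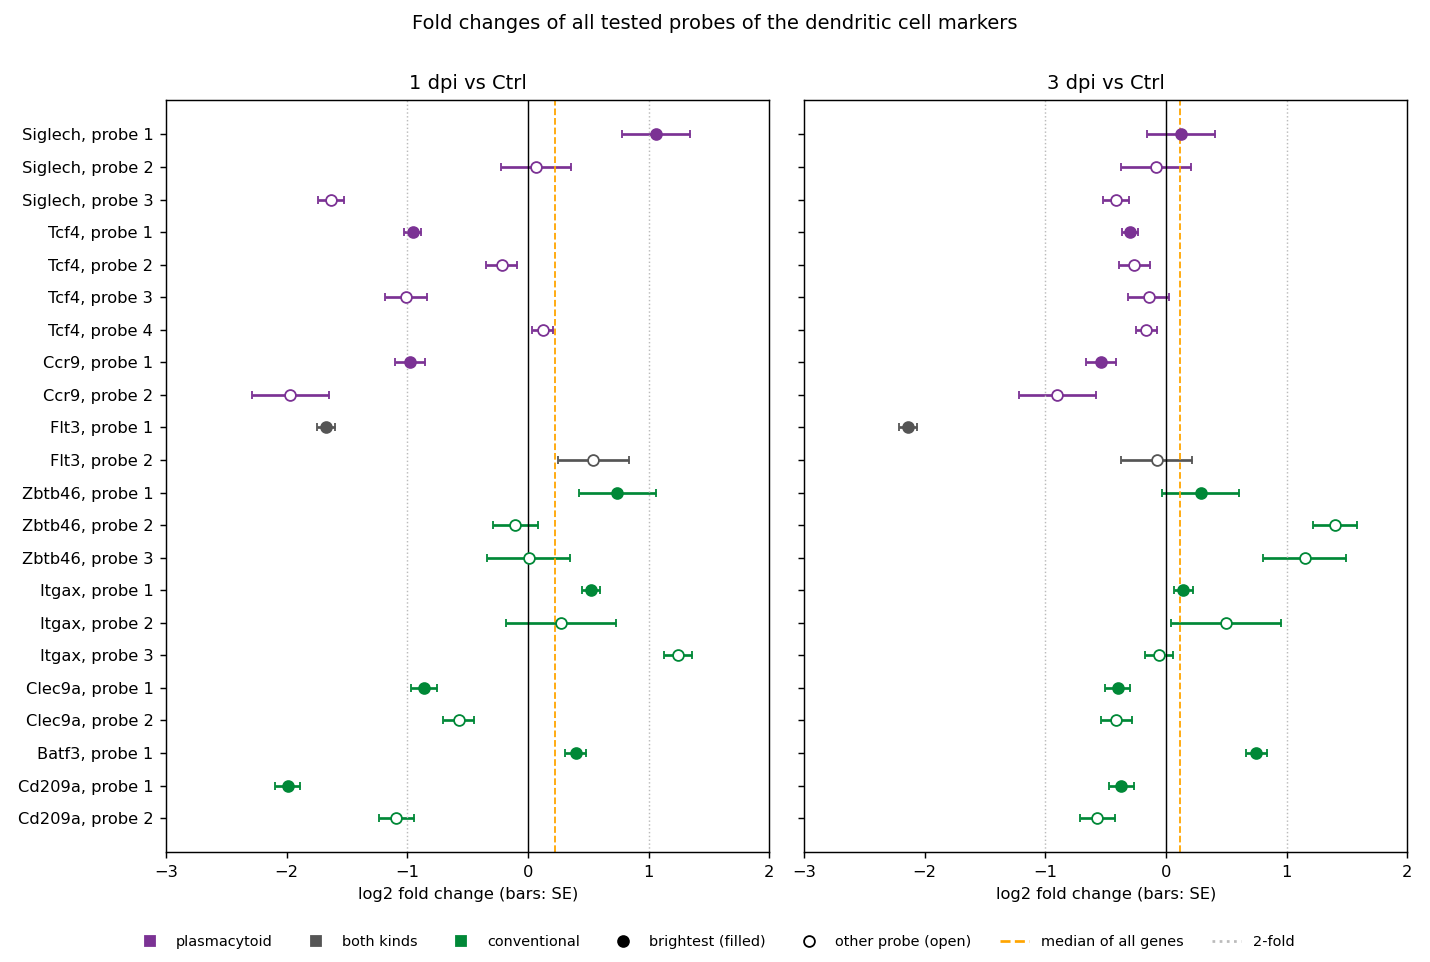
Log2 fold change (x axis, bars SE) of the 22 marker probes past the filter at 1 dpi and 3 dpi against Ctrl, filled for the brightest probe of a gene and open for others, with the median of all genes dashed in orange and 2-fold dotted. At 1 dpi the probes of Siglech ranged from -1.63 to 1.06, and both Cd209a probes and both Ccr9 probes lay below 0. At 3 dpi the open Zbtb46 probes lay above 1, of which probe 3 passed the filter only through its 3 dpi arrays. Where a group was not above background the plotted value is no bound.

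Taken by kind, the median of the log2 fold changes was -0.96 at 1 dpi and -0.30 at 3 dpi for the 3 plasmacytoid markers, beside 0.227 and 0.118 for all genes. The 5 conventional markers tested had medians of 0.40 and 0.14. The 3 plasmacytoid values at 1 dpi ran from -0.98 to 1.06, the highest being Siglech by the probe whose sequence other genes share. The kinds did not split cleanly. At 1 dpi Cd209a and Clec9a were lower with Tcf4 and Ccr9, and Itgax and Batf3 were higher with Siglech. From 1 dpi to 3 dpi the medians were 0.45 for the plasmacytoid and 0.36 for the conventional markers, beside -0.085 for all genes. Over the 9 tested markers together the medians at 1 and 3 dpi were -0.86 and -0.30, and 0.36 from 1 dpi to 3 dpi. No test was made of one kind against the other.

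In the deposited log2 table each of the 10 markers has 1 value per array, and these values could be traced to 1 probe per gene, within 0.00607 on the log2 scale after quantile normalization. For Siglech this was probe 3, with values of 6.13, 5.59 and 5.58 in Ctrl, 3.51, 3.66 and 3.89 at 1 dpi and 5.05, 5.19 and 5.21 at 3 dpi. The deposited values of Siglech are thus lowest at 1 dpi, and those of its repeat-like brightest probe highest. Flt3, Clec9a, Batf3 and Cd209a were traced to the probes used above, whereas Tcf4, Ccr9, Zbtb46 and Itgax were traced to dimmer ones, that of Zbtb46 being well above background on only 2 of 9 arrays, both at 3 dpi. Siglech probe 3 was not above background on any array at 1 dpi, so the size of its fall in that table is no measured fold, and the bound given above stands. The direction of Siglech at 1 dpi thus depended on the probe.

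The factors, ligands and adaptors that work with the markers formed a list of 14 partners, all tested. For the counts of this and the later lists, the background was 11.7% of all genes called higher and 3.08% lower at 1 dpi. At 3 dpi it was 7.04% higher and 1.79% lower. At 1 dpi 3 were called higher and 1 lower, around a median of -0.25, whereas at 3 dpi it was 2 higher and 1 lower, around a median of -0.031. Xcl1, the ligand of Xcr1, rose by 2.08 at 1 dpi (4.24-fold, adjusted p = 8.7e-07) and by 2.20 at 3 dpi (adjusted p = 5e-07), while Xcr1 itself was at background. Flt3l, the ligand of Flt3, stood at -0.26 at 1 dpi (adjusted p = 0.05) and was lower by -0.43 at 3 dpi (adjusted p = 0.011). Ccl25, the ligand of Ccr9, was lower by -0.23 at 1 dpi (adjusted p = 0.011) and stood at -0.033 at 3 dpi (adjusted p = 0.69).

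Tcf12 and Tcf3 encode the other E proteins of the Tcf4 family. Tcf12 was lower at 1 dpi by -0.63 (adjusted p = 0.00041), and Tcf3 was lower by -0.44 at 1 dpi (adjusted p = 0.018) and -0.42 at 3 dpi (adjusted p = 0.033). Cbfa2t3, a cofactor of Tcf4, was lower by -0.46 and -0.55 (adjusted p = 7e-04 and 0.00042). Of the Id proteins, which block E proteins, Id3 rose by 1.00 and 1.47 (adjusted p = 6.8e-05 and 1e-05). Id1 was higher at 1 dpi by 0.57 (adjusted p = 0.003) and Id2, which cDC1 need, was lower there by -0.39 (adjusted p = 0.0015).

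Jun, a partner of Batf3, rose at 1 dpi by 1.12 (adjusted p = 7.8e-05), was lower at 3 dpi by -0.64 (adjusted p = 0.0018), and fell from 1 dpi to 3 dpi by 1.75 (adjusted p = 2e-05). Irf4, which works with Batf proteins and is needed by cDC2 and B cells, fell by 2.47 and 1.94 at 1 and 3 dpi (adjusted p = 1.2e-06 and 2.7e-06). Irf8, the cDC1 counterpart, was lower at 1 dpi by -0.35 (adjusted p = 0.0041) and stood at 0.10 at 3 dpi (adjusted p = 0.3). Tyrobp, the adaptor of Siglech, stood at 0.17 and 0.14 (adjusted p = 0.13 and 0.25). Itgb2, the chain that pairs with Itgax, stood at -0.00090 and 0.048 (adjusted p = 0.99 and 0.67).

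Other genes known from plasmacytoid dendritic cells went both ways. Of 24, the calls at 1 dpi were 5 higher and 6 lower, those at 3 dpi 5 higher and 4 lower, with medians of 0.19 and 0.021. Spib, an ETS factor of plasmacytoid and B cells, fell by 3.67 and 3.20, and Ly6d, found on B-lymphoid and plasmacytoid precursors, fell by 2.26 and 1.27. Irf7, the interferon regulatory factor that interferon itself induces in many cells, rose by 2.12 and 1.26, and Epha2 rose by 3.28 and 1.60. Lifr rose by 1.02 and 3.02, and Klk1 fell by 1.37 and 1.47, at 1 and 3 dpi.

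Of 16 other cDC1 genes, 2 passed as higher and 1 as lower at 1 dpi, while 3 passed as higher at 3 dpi, with medians of -0.11 and 0.095. Cadm1, an adhesion molecule of cDC1, fell by 1.27 at 1 dpi, whereas Tlr3, the receptor for double-stranded RNA, rose by 1.27 and 1.06, Rab7b rose by 1.78 and 1.08, and Naaa rose by 1.31 at 3 dpi. Of 12 other cDC2 genes, 2 were called lower at 1 dpi, whereas 2 rose and 2 fell at 3 dpi, with medians of 0.13 and 0.51. The lower ones at both times were Irf4 and Dtx1, a Notch target that fell by 2.65 at each time, and the higher ones at 3 dpi were the lectins Clec10a (1.98) and Clec4a4 (1.39).

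Of 12 genes of mature dendritic cells, 11 were tested and Ccl22 was not. At 1 dpi 1 was called higher against 2 lower, at 3 dpi 3 higher against 1 lower, with medians of 0.26 and 0.43. Ccr7, the receptor that guides mature dendritic cells and lymphocytes to lymph nodes, fell by 1.98 and 1.85, and Il4i1 fell by 1.66 at 1 dpi. Fscn1, an actin-bundling protein, rose by 1.61 and 1.68, and at 3 dpi Cd86, a costimulatory ligand, rose by 1.24 and Socs2 by 1.00.

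Antigen presentation genes did not share 1 order of groups. Of 9 MHC class II genes, 4 were called lower at 1 dpi and 1 at 3 dpi, with medians of -0.80 and -0.37, and 0.50 from 1 dpi to 3 dpi. H2-Aa fell by 1.33, the transactivator Ciita by 1.13, the invariant chain gene Cd74 by 1.1 and H2-Eb1 by 1.04 at 1 dpi, and H2-Ob fell by 1.02 at 3 dpi. From 1 dpi to 3 dpi, with no minimum fold, 5 of the 9 were higher and 3 lower, the lower ones being H2-Ob (-0.50), H2-DMa (-0.32) and H2-Oa (-0.61). Of all genes, 21.0% were higher and 23.3% lower in that comparison. The summed level, led by H2-Ab1, was 133, 121 and 120 in Ctrl, 71.5, 68.6 and 70.7 at 1 dpi, and 108, 97.6 and 94.5 at 3 dpi. B cells and macrophages express these genes too. Of 9 growth factor receptors and regulators of dendritic cells, 1 was called lower at 1 dpi, whereas 1 rose and 1 fell at 3 dpi, with medians of -0.026 and -0.075. Kit fell by 1.11 and 1.32, and Csf1r rose by 1.05 at 3 dpi.

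Markers of other cells changed too, and whether they shared a course with the dendritic cell markers was not tested. B cells or their precursors are known to express Flt3, Tcf4 and Spib too. B-cell markers were called lower for 13 of 14 tested genes at both times, with medians of -2.87 and -2.82, Ighd being absent from the array. Their summed level, led by Cd79b, was 49.3, 45.5 and 46.9 in Ctrl, 8.99, 8.72 and 8.95 at 1 dpi, and 9.13, 8.77 and 8.71 at 3 dpi. Rag1, counted among the 13, was not above background on any irradiated array. At 3 dpi it was at least 1.84-fold lower, and at 1 dpi no bound could be given. Vpreb3 fell by 5.44 and 3.95, Ms4a1 by 4.15 and 3.76 and Fcmr by 4.10 and 4.36. Igll1 fell by 4.72 and 3.43. Stem and progenitor markers, 10 in all and led by Myb, were called lower for 4 at 1 dpi and 5 at 3 dpi, with medians of -0.47 and -0.96. They summed to 143, 141 and 137 in Ctrl, 106, 108 and 107 at 1 dpi, and 89.1, 85.5 and 82.4 at 3 dpi, with Meis1 falling by 1.22 and 2.23, Cd27 by 1.56 and 1.95, Hlf by 1.48 and 1.84 and Cd34 by 1.51 at 3 dpi. The part of these cells in the falls of Flt3, Tcf4 and the other dendritic cell markers was not tested.

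Macrophage markers were called higher for 4 and lower for 2 of 14 at 1 dpi, and higher for 10 at 3 dpi, with medians of 0.38 and 1.82. Their summed level, led by Csf1r, was 92.8, 82.9 and 80.3 in Ctrl, 118, 113 and 119 at 1 dpi, and 222, 217 and 214 at 3 dpi. Siglec1 rose by 1.59 and 2.84, C1qb by 1.49 and 2.52 and C1qc by 1.37 and 2.39. C1qa rose by 2.38 at 3 dpi, and Timd4 and Cd163 fell by 2.54 and 2.09 at 1 dpi. Of 8 monocyte markers, led by Chil3, 3 were called higher at each time, with medians of 0.50 and 0.61 and mean summed levels of 523, 842 and 564 in Ctrl, at 1 dpi and at 3 dpi. Fcgr1 rose by 2.46 and 2.71, Cd14 by 1.64 and 1.46, Ms4a4c by 1.39 at 1 dpi and Ccr2 by 1.64 at 3 dpi. The part of macrophages and monocytes in the levels of Itgax, Batf3, Zbtb46 and Cd209a was not tested.

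The remaining lists moved as follows, where 11.7% of all genes were called higher at 1 dpi and 7.04% at 3 dpi. Of 10 neutrophil markers, 1 was called higher at 1 dpi, S100a8 (1.12), with medians of 0.53 and 0.0048. Of 12 T and NK cell markers, led by Nkg7, 2 were called higher at 1 dpi and 4 at 3 dpi, with medians of 0.54 and 0.65 and mean summed levels of 45.8, 62.4 and 54.5. Gzma rose by 1.17 and 2.23 and Ncr1 by 1.00 and 1.77, and Klrb1c and Cd3g rose by 1.97 and 1.75 at 3 dpi. Of 10 endothelial markers, led by Stab2, 5 were called higher at 1 dpi and 6 at 3 dpi, with medians of 0.89 and 1.69 and mean summed levels of 4.58, 8.28 and 14.4. Of 10 stromal markers, led by Sparc, 6 were called higher at each time, with medians of 1.43 and 3.16 and mean summed levels of 22.4, 112 and 200. limma called none of the 14 megakaryocyte markers at either time, and with no minimum fold 3 passed as higher against 4 as lower at 1 dpi, 5 against 1 at 3 dpi, with medians of -0.070 and 0.036. Of all genes, 33.4% then passed as higher and 21.9% as lower at 1 dpi, and 17.1% and 14.8% at 3 dpi.

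**Figure D4:**
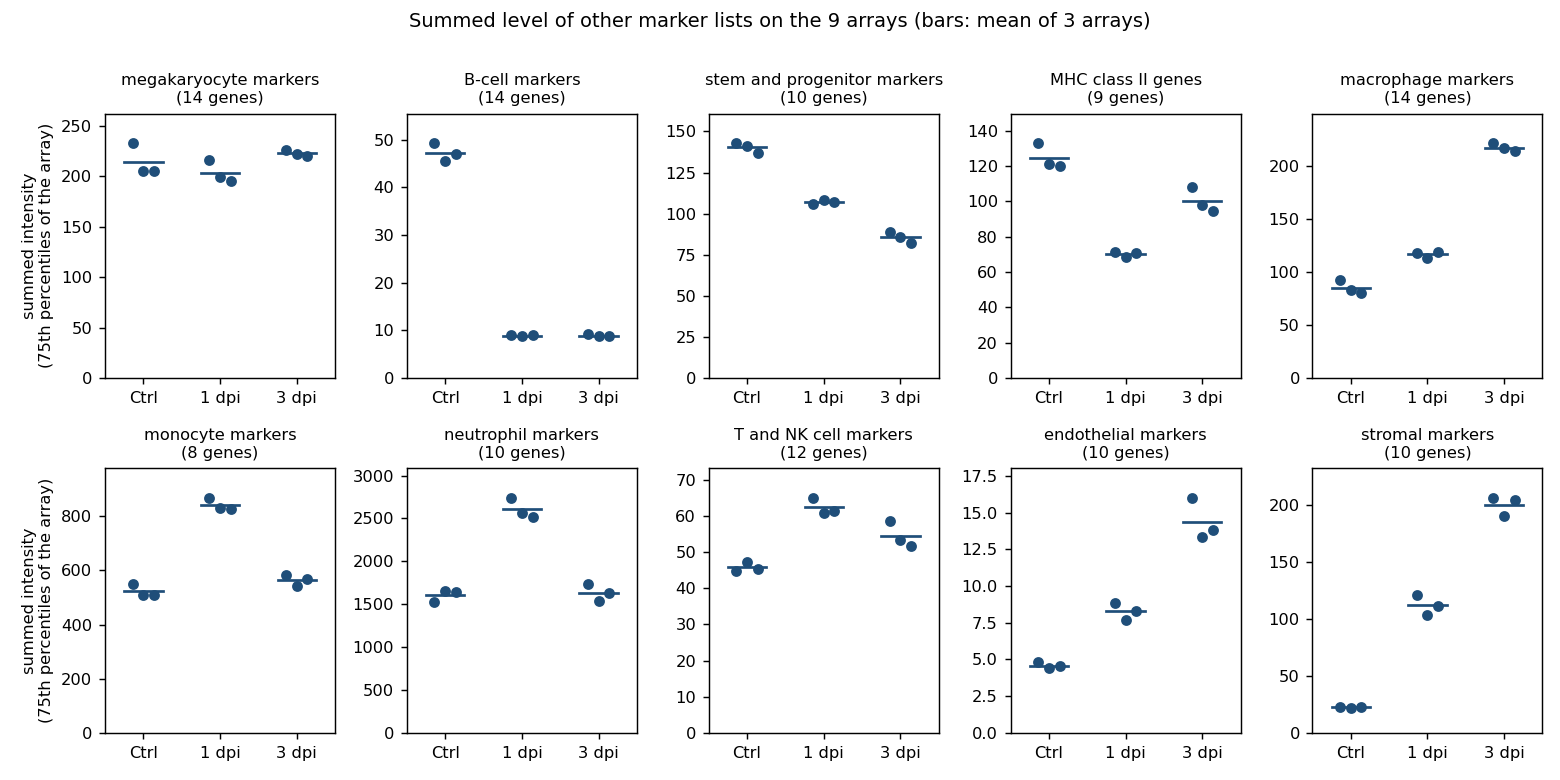
Summed intensity of 10 marker lists on each array (y axis, in units of the array's 75th percentile, starting at 0 with an own range for each list; points are arrays, bars means of 3 arrays). B-cell markers fell from a mean of 47.2 in Ctrl to 8.89 and 8.87 at 1 and 3 dpi, macrophage markers were at 85.3, 116 and 217, and megakaryocyte markers at 215, 203 and 223.

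The genes whose profile over the 9 arrays lay nearest to a called marker were looked up among 24006 genes well above background on all arrays, by the root mean square difference of values centred on each gene's mean. For Siglech probe 1 these were Gm5878 (0.0704), Rheb (0.0706) and Olfr1349 (0.0812). Their probes share runs with 6, 10 and 0 other genes, and none of the 3 shares a run with Siglech probe 1. For Flt3 they were Niban3 (0.12), Sox4 (0.123) and Cd27 (0.133). For Cd209a they were Aldh1l1 (0.161), Cd2 (0.162) and Il4i1 (0.186).

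Promoters of the 3 markers called in a comparison are printed to show which motifs of dendritic cell factors they hold. RefSeq sequences on GRCm38.p6 covered 9 of the 10 markers, each from 250 bases before to 50 after the gene's start, and both strands were searched for 7 motifs. Capitals mark the matches.
Siglech promoter: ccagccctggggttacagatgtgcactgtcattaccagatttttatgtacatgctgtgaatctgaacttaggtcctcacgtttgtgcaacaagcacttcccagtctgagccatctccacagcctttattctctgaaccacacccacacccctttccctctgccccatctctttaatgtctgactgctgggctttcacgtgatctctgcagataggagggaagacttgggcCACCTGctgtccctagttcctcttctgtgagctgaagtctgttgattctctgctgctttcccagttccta
Flt3 promoter: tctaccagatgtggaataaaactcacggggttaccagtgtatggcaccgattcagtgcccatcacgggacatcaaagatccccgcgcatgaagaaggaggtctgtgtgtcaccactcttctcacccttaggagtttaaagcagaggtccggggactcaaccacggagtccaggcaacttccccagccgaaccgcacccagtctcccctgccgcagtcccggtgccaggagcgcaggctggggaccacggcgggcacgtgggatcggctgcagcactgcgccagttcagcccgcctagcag
Cd209a promoter: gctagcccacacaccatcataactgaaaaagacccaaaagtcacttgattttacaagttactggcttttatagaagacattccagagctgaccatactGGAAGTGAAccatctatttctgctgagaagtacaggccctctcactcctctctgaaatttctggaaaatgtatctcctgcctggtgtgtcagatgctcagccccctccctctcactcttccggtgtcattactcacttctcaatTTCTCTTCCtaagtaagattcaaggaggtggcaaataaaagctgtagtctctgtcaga
They lie at chr7:55767934-55768233 on the plus strand, chr5:147400440-147400739 on the minus strand and chr8:3748935-3749234 on the minus strand. The Siglech promoter held 1 match of the E-protein box CACCTG, which is CAGGTG on the other strand and occurs in 20.2% of the 32851 promoters. The Cd209a promoter held 2 matches of GGAANNGAA, the composite of ETS and IRF factors, on opposite strands, a motif found in 8.24% of promoters. The Flt3 promoter held no match. The other motifs searched, CAGCTG (16.3% of promoters), the AP-1 motif TGANTCA (7.81%), the interferon motif GAAANNGAA (8.56%) and the PU.1 motif GAGGAAGT (3.20%), had no match in the 3 promoters. A match describes letters in this window only.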

How the data were processed

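Total RNA of 9 samples was measured on Agilent 1-colour arrays of design 074809. Per the file headers and the submitters' processing notes, the authors made the spot files with Agilent Feature Extraction 10.7.1.1, whose processed signal is an intensity, background-subtracted and detrended within each array and not normalized between arrays. The deposited table holds log2 values, 1 per gene name, whose quartiles are nearly equal on all arrays; how it was normalized is not stated. The paper's methods describe another maker's chip, whereas the files are Agilent's, and the files were followed.

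Of 62976 spots, 3671 controls were dropped, and 56605 different probes remained, of which 20 were left out as outliers. Gene names came from RefSeq accessions for 32984 probes and from the array file for 23601. Values were log2 intensities minus each array's 75th percentile, over the 44300 probes that in 1 group or more were well above background on each of its 3 arrays, with the brightest probe per gene (29410 genes). One limma 3.58.1 model (R 4.3.3) held the 3 groups, with Benjamini-Hochberg adjustment over all genes; probes were fitted the same way over all 44300. A call needed an adjusted p under 0.05 and a 2-fold change. No saturated spots were found, and the number of arrays limits the precision. Figures were drawn with matplotlib 3.10.9 under Python 3.11.15. The code was tested on simulated data.

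The members and lists were chosen with earlier results of these data known. Named were all 10 members, the 14 partners, from each other list the called genes that changed most (up to 4) in each comparison with Ctrl, among genes well above background in both groups, and the 3 nearest genes of each called member. Of the 19 lists, 6 genes stand on more than 1: Irf8, Id2, Irf4, Ly75, Kit and Csf1r. Alternatives covered scaling, background, filter, probe choice, source of the values, slide, replicate number, variance model, test, minimum fold and leaving out each array. Which exon or untranslated region a probe lies in could not be read, since no annotation on mm9 was at hand.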

Additional observations from a re-analysis of the deposited data

Results flagged for a closer look

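Cd209a differed between the days. Its log2 fold change against Ctrl was -1.99 at 1 dpi and -0.37 at 3 dpi, and the difference between these, tested as 3 dpi against 1 dpi in the same limma model, was 1.62 (adjusted p = 3.4e-05). The second Cd209a probe gave 0.52 for the same difference (adjusted p = 0.019). The cause was not tested.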

How the results depend on the processing

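In all, 27 alternatives were run, 9 of them leaving out 1 array each; 2 were chosen after seeing the data, the software's own 75th percentile and leaving out probes that share a run with at least 10 other genes. Cd209a at 1 dpi and from 1 dpi to 3 dpi, and Flt3 at 3 dpi, were called under all 27. The cause was not tested where values below differ, except where an alternative uses another probe.

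With array medians, 5 markers were called at 1 dpi, all lower (Tcf4, Ccr9, Flt3, Clec9a and Cd209a), and with quantile normalization 4, these without Tcf4, where 7.83% and 5.13% of all genes were lower, against 3.08% as reported; Siglech lost its call with both. With array medians Siglech at 3 dpi was -0.023 and Itgax at 3 dpi -0.0067; 45.0% of called genes at 1 dpi were then higher, against 79.2% as reported, and 56.3% with quantile normalization. With no minimum fold, 16275, 9391 and 13016 genes and 8, 6 and 8 markers passed at 1 dpi, at 3 dpi and from 1 dpi to 3 dpi. With normexp background, 2443, 1294 and 1351 genes were called, and with quantile normalization added 1667, 1147 and 1088.

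With the mean of a gene's probes, Siglech was -0.17, -0.12 and 0.043 in the 3 comparisons, and Zbtb46 from 1 dpi to 3 dpi 0.73. With the deposited log2 table, which uses other probes, 6, 2 and 5 markers were called, where 16.8%, 11.4% and 12.4% of the 21694 genes were called in either direction; Siglech was -2.08, -0.62 and 1.46, Zbtb46 -0.43 at 1 dpi and 1.2 from 1 dpi to 3 dpi, and Itgax -0.41 at 3 dpi. In that table, the values of Siglech and Ccr9 that involve 1 dpi and those of Zbtb46 rest on signals not above background, and measure no fold. Without probes that share runs, Siglech was represented by probe 2 and lost its call at 1 dpi (0.068, adjusted p = 0.85), and at 3 dpi it was -0.083.

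With the slide as a fixed block, Siglech at 3 dpi was -0.25 and Zbtb46 -0.023, the values also found without Ctrl replicate 1. The fixed block tested 29410 genes, and leaving out that array 30046. With the slide as a random block Siglech at 3 dpi was -0.14. With the replicate number as a block, 4186, 2505 and 2455 genes and 3, 1 and 1 markers were called; arrays of the same number did not pair, their deviations from group means having r from -0.107 to 0.128, against -0.147 to 0.102 for different numbers.

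Leaving out each array in turn gave 3543 to 5247 genes and 2 to 5 markers at 1 dpi, 2369 to 2790 genes and 1 marker at 3 dpi, and 2231 to 2810 genes and 1 marker from 1 dpi to 3 dpi. Siglech ranged from 0.68 to 1.26 at 1 dpi and from -0.25 to 0.33 at 3 dpi, and Zbtb46 from -0.023 to 0.60 at 3 dpi. The 5 markers came without Ctrl replicate 2, which added Ccr9 and Zbtb46. The methods' t-test called 3866, 2557 and 2665 genes unadjusted. Signal over background limits Xcr1 on all arrays, Siglech probe 3 and Ccr9 probe 2 at 1 dpi, Itgax probe 3 in Ctrl, and the dimmer Zbtb46 probes.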
